A study of Mus musculus with 2 samples.

Results

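The inhibitory checkpoint receptors are surface proteins that restrain T cells and natural killer (NK) cells. Their RNA was followed in leukocytes sorted from mouse melanomas. The 8 genes were taken by symbol from the 32285 genes listed in each library, and all 8 were found: Pdcd1 (PD-1), Ctla4 (CTLA-4), Lag3 (LAG-3), Tigit (TIGIT), Havcr2 (TIM-3), Cd160, Cd244a (2B4) and Entpd1 (CD39). CD45-positive cells, the leukocytes, had been sorted by flow cytometry from tumors of wild-type mice bearing B16-F10, a transplantable mouse melanoma line. Some mice were given vehicle, labelled Control, and the others DOPAC (dihydroxyphenylacetic acid), which cells form from dopamine. The design text gives 4 mice per group, but each group is 1 library in which no tag assigns a cell to a mouse. The labels used here give no strain, age, dose or duration. Every comparison of Control with DOPAC is therefore of 1 library with 1 library, has no replicate check and carries no p-value. Intervals are 95% intervals of counting error only.

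As background, PD-1 and TIGIT carry tyrosine motifs that recruit phosphatases and dampen antigen receptor and costimulatory signals. CTLA-4 competes with CD28 for the B7 ligands of dendritic cells, and regulatory T cells hold it constantly. LAG-3 binds MHC class II and other ligands, and TIM-3 binds ligands that include galectin-9 and HMGB1. CD160 and 2B4 are receptors of NK cells and of T cells with killing function, and 2B4 can activate or inhibit. CD39 is not a receptor in the strict sense but an ectoenzyme that splits extracellular ATP as a step towards adenosine. In tumors, T cells under lasting antigen stimulation often carry several of these proteins together, while myeloid cells constitutively hold TIM-3 and CD39.

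The genes lie apart in the genome (GRCm38, GENCODE vM21). Pdcd1 (ENSMUSG00000026285) spans chromosome 1, 94038305 to 94052553, on the minus strand, and Ctla4 (ENSMUSG00000026011) spans 60887000 to 60915832 on the plus strand of the same chromosome. Cd244a (ENSMUSG00000004709) also lies there, from 171559193 to 171609746 on the plus strand. Havcr2 (ENSMUSG00000020399) lies on chromosome 11, 46454935 to 46481255, plus strand. Lag3 (ENSMUSG00000030124) lies on chromosome 6, 124904361 to 124911705, minus strand. Tigit (ENSMUSG00000071552) lies on chromosome 16, 43648867 to 43664146, minus strand. Cd160 (ENSMUSG00000038304) lies on chromosome 3, 96798763 to 96829351, minus strand, and Entpd1 (ENSMUSG00000048120) on chromosome 19, 40612366 to 40741602, plus strand. Cd160 overlaps Pdzk1, and Cd244a overlaps Ly9, each on the opposite strand. The use of strand in the counting is not given in the sources used here, so reads shared with these neighbours cannot be told apart.

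Promoter sequence is shown for 4 receptors whose RNA took different courses in CD8 T cells: Havcr2, with the widest difference between the libraries, Pdcd1 and Ctla4, which differed less, and Cd160, which was not higher in DOPAC. The lines give the 250 bases before the RefSeq start site (GRCm38.p6) on the gene's own strand, 5′ to 3′. Capitals mark matches, on either strand, to 8 short motifs: AP-1 (TGANTCA), NR4A (AAAGGTCA), RUNX (TGTGGT), NFAT (GGAAAA), TCF (CTTTGA), T-box (AGGTGT), GC box (GGGCGG) and, for the box that names the TATA-binding protein, the letters TATAAA.
Havcr2, chr11:46454681-46454930, plus strand: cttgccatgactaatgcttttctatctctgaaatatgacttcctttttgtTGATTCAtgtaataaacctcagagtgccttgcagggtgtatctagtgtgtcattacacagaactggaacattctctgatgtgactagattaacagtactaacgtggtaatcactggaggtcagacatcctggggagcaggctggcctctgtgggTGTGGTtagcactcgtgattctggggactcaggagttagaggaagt
Pdcd1, chr1:94052554-94052803, minus strand: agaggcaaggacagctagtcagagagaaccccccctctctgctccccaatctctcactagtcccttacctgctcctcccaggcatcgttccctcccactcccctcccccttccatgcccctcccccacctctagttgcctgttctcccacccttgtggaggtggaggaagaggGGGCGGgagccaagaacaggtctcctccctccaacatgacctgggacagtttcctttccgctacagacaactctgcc
Ctla4, chr1:60908775-60909024, plus strand: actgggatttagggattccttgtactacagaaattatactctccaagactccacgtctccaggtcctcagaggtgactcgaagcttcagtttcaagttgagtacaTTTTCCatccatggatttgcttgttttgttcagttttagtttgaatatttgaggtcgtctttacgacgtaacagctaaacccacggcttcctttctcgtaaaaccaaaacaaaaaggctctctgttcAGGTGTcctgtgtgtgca
Cd160, chr3:96829352-96829601, minus strand: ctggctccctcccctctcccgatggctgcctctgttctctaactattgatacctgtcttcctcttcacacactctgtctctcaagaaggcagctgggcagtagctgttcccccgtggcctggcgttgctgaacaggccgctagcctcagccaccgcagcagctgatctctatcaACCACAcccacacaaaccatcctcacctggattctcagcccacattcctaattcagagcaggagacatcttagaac
The Havcr2 window holds an AP-1 match 200 bases and a RUNX match 46 bases before the start site. The Pdcd1 window holds 1 GC box, the Ctla4 window an NFAT and a T-box match, and this Cd160 window 1 RUNX match. Cd160 has a further window, chr3:96814522-96814771, which is not shown and holds RUNX, TCF and GC box matches. Among 32851 RefSeq windows of the same length, AP-1 was found in 6.75%, RUNX in 14%, NFAT in 20.4%, TCF in 13.8%, T-box in 11.8% and the GC box in 32.7%. No match to NR4A, which 1.34% of all windows hold, was found in any of the 9 windows of the 7 receptors that had one. A match describes letters and is not evidence of binding, and the absence of one says only that these letters are not in this window.

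The Control library held 9629 barcodes with 100938364 UMIs (unique molecular identifiers, which count single RNA molecules), and the DOPAC library 10777 barcodes with 47769958 UMIs. After filters on depth, mitochondrial RNA and doublets, 8105 Control and 9280 DOPAC cells were kept, with median depths of 9320 and 3592 UMIs. Cells were sorted into classes by counting UMIs of marker genes, and none of the 8 receptors was a marker. CD8 T cells (at least 2 UMIs of Cd3d, Cd3e and Cd3g, a UMI of Cd8a or Cd8b1, and none of Cd4 or Foxp3) numbered 678 in Control and 3161 in DOPAC. Regulatory T cells (a Foxp3 UMI without Cd8) numbered 76 and 58, other T cells 705 and 831, NK cells 783 and 743, and myeloid cells 3881 and 1782. The label calls the cells lymphocytes, but 47.9% of Control and 19.2% of DOPAC cells passed the myeloid gate. No gate was met by 11.5% of Control and 27.8% of DOPAC cells, at median depths of 6020 and 2310 UMIs. Marker genes outside the gates set some classes apart and not others. Il2ra, Ikzf2, Ccr8 and Tnfrsf4 summed to 4524 and 5531 CPM (UMIs of a gene per 1000000 UMIs of the class) in regulatory T cells and to 596 and 689 CPM in CD8 T cells. The NK set (Klrk1, Eomes, Tyrobp and Fcer1g) summed to 3780 and 2480 CPM in NK cells but also to 4169 and 3951 CPM in monocytes and macrophages. The CD8 T set (Nkg7 and Ccl5) summed to 4455 and 7395 CPM in CD8 T cells and to 8841 and 6496 CPM in NK cells. The class called monocytes and macrophages is the myeloid cells outside the dendritic cell gates and can include neutrophils. The neutrophil genes S100a8, S100a9 and Csf3r summed to 235 CPM in Control and 101 CPM in DOPAC there. The part of neutrophils in that class's levels was not tested. The libraries share 32 barcodes, of which 24 were kept in both. Red cell RNA (Hbb-bs and Hba-a1) stood at 794 CPM in Control and 0.6 CPM in DOPAC CD8 T cells, and its part in the results was not tested.

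Each receptor had its own set of cells, and for several of them the highest class was not a T cell class. Levels are CPM of the UMIs summed over all cells of a class. Havcr2 was at 189 CPM in Control type 1 conventional dendritic cells (cDC1, which hand tumor antigen to CD8 T cells) and at 200 CPM in DOPAC cDC1, a ratio of 1.06 (0.908 to 1.23). In Control this was the highest class, 2.39 times the next one (2.24 to 2.54), the monocytes and macrophages at 79.2 CPM. In DOPAC, CD8 T cells low in naive genes stood at 243 CPM and thus above cDC1.

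Entpd1 was highest in monocytes and macrophages of both libraries, at 249 CPM in Control and 216 CPM in DOPAC, where regulatory T cells at 187 CPM did not differ from them beyond counting error (ratio 1.16, 0.855 to 1.61). Cd244a was highest in NK cells, at 71.6 and 58.1 CPM, followed in Control by other dendritic cells at 50.9 CPM (ratio 1.41, 1.23 to 1.61) and in DOPAC by monocytes and macrophages at 52.1 CPM, which were not separable (1.11, 0.913 to 1.35). Lag3 led in Control plasmacytoid dendritic cells, the interferon-producing cells marked by Siglech, at 68.1 CPM from 294 UMIs. The 37 DOPAC cells of that class gave 55.1 CPM, but from only 9 UMIs (ratio 0.809, 0.366 to 1.56).

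Ctla4 was highest in regulatory T cells, at 1429 CPM in Control and 2065 CPM in DOPAC. The next class, other T cells with a Cd4 or Cd40lg UMI, reached 289 and 648 CPM. Tigit too led in regulatory T cells, at 46.3 and 122 CPM, although in Control CD8 T cells low in naive genes, at 44.0 CPM, came within counting error of them. NK cells held 37.8 and 34.3 CPM of it. Pdcd1 led in CD8 T cells low in naive genes in Control (173 CPM), and in DOPAC cycling CD8 T cells (176 CPM) and these cells (171 CPM) did not differ beyond counting error (ratio 1.03, 0.954 to 1.11). Cd160 was found in CD8 T, other T and NK cells. It stood at 38.6 and 31.3 CPM in CD8 T cells, 26.4 and 25.6 CPM in other T cells and 22.4 and 27.1 CPM in NK cells, and at 1.08 and 0.0 CPM in regulatory T cells, from 1 and 0 UMIs.

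**Figure D1:**
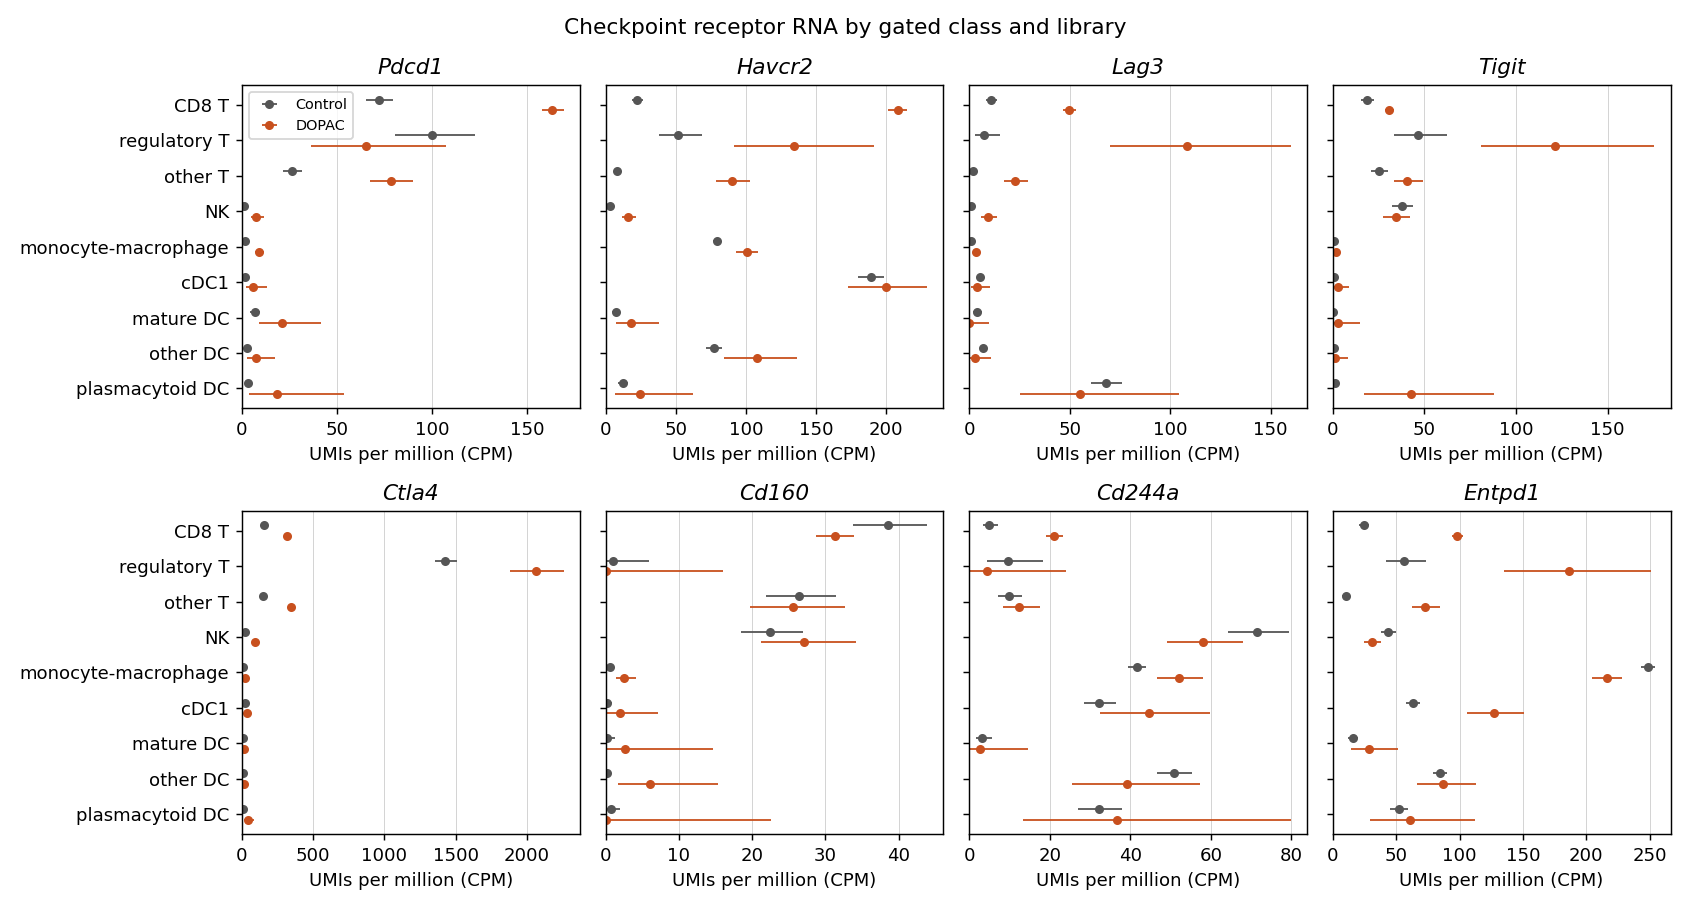
Level of each receptor's RNA (CPM of the class's summed UMIs, linear axes that differ between panels) in 9 gated classes, with Control in grey and DOPAC in orange; points are 1 library each and bars are 95% Poisson counting intervals. T-cell classes were higher in DOPAC for most receptors (CD8 T Havcr2 22.7 against 208 CPM), while cDC1 held Havcr2 at 189 and 200 CPM in the 2 libraries.

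The classes that held a receptor's molecules also differed between the libraries, in which both class sizes and levels differed. In Control, 83.3% of all Havcr2 UMIs and 84.1% of all Entpd1 UMIs lay in myeloid cells, against 2.23% and 1.23% in CD8 T cells. In DOPAC, CD8 T cells held 64.5% of the Havcr2 UMIs and 39.3% of the Entpd1 UMIs, and myeloid cells 15.0% and 32.9%. Of the Lag3 UMIs, Control plasmacytoid dendritic cells held 47.8% and CD8 T cells 10.6%, against 0.705% and 73.0% in DOPAC. The CD8 T share of Pdcd1 UMIs was 39.3% in Control and 81.2% in DOPAC, and that of Ctla4 15.4% and 64.0%. Regulatory T cells, 0.938% of the Control and 0.625% of the DOPAC cells, held 22.0% and 5.14% of the Ctla4 UMIs. Cells that met no gate held between 8.91% (Pdcd1, DOPAC) and 29.6% (Ctla4, Control) of a receptor's UMIs.

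**Figure D2:**
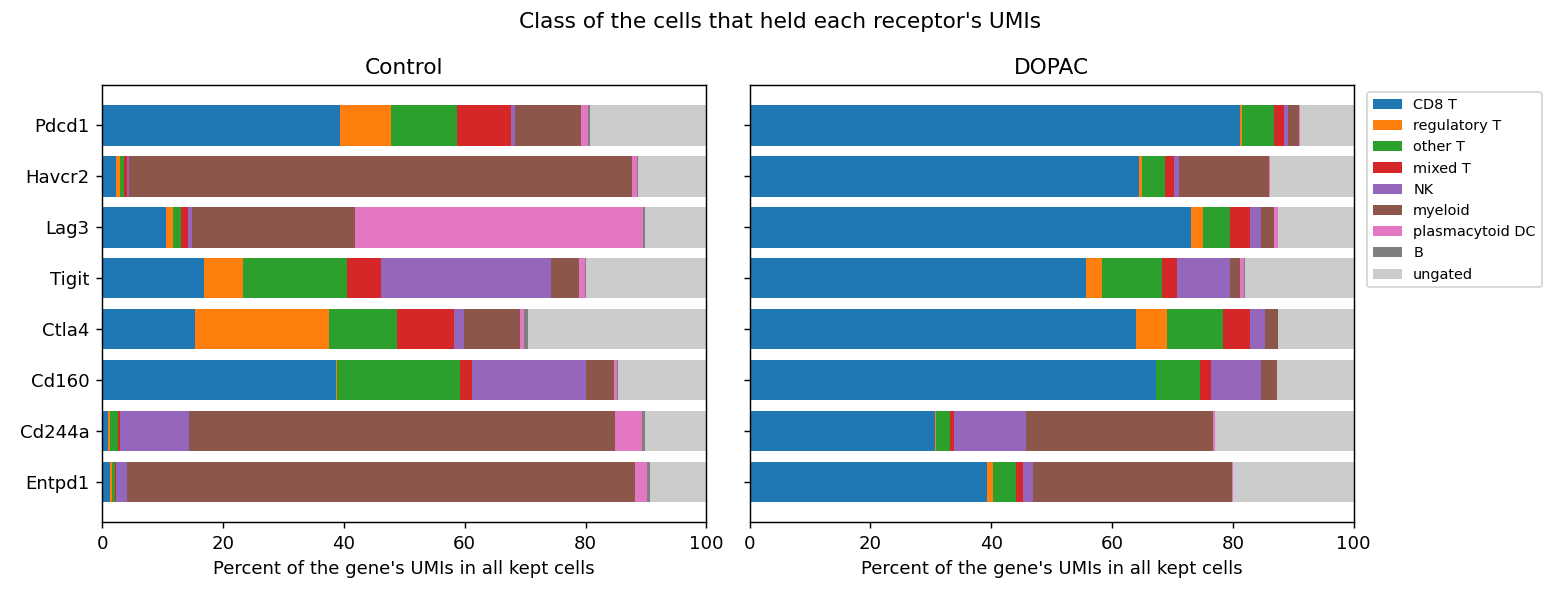
Share of each receptor's UMIs (percent of that gene's UMIs over all kept cells of a library) by the class of the cell that held them, 1 bar per gene and library. Myeloid cells held 83.3% of the Control Havcr2 UMIs, and CD8 T cells 64.5% of the DOPAC Havcr2 UMIs.

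In CD8 T cells, the killer lymphocytes, 7 of the 8 receptors were at least 1.5-fold higher in DOPAC and 0 were lower, where 17.4% of 12512 genes were higher and 22.4% lower. The median log2 ratio of the 8 was 1.59, against -0.06 over all genes tested. Havcr2 stood at 22.7 CPM in Control (136 UMIs) and 208 CPM in DOPAC (3893 UMIs), 9.15-fold higher (7.71 to 10.9). Lag3 was at 10.9 and 49.8 CPM, 4.59-fold higher (3.56 to 5.99). Both receptors had most of their DOPAC molecules in CD8 T cells and few of their Control molecules. Cd244a was at 5.01 and 21.1 CPM (4.21-fold, 2.90 to 6.33) and Entpd1 at 24.4 and 98.4 CPM (4.03-fold, 3.41 to 4.81). Pdcd1 stood at 72.2 CPM in Control and 164 CPM in DOPAC (2.27-fold, 2.05 to 2.51). Ctla4 was at 155 and 317 CPM (2.04-fold, 1.90 to 2.19), and Tigit at 18.9 and 30.9 CPM (1.64-fold, 1.34 to 2.02). Cd160 was the exception, at 38.6 CPM in Control and 31.3 CPM in DOPAC (0.810-fold, 0.694 to 0.947).

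The CD8 T cells of the libraries differed in their UMIs of naive-cell genes. At least 2 UMIs of a set of naive-cell genes, with Lef1, Tcf7, Ccr7 and S1pr1 among them, were found in 624 of the 678 Control cells and in 428 of the 3161 DOPAC cells. Without these cells, 54 Control and 2733 DOPAC cells were left, and only 2 receptors were at least 1.5-fold higher (background 11.8%) and 1 lower (background 35.9%). Havcr2 was still higher, at 61.6 and 219 CPM (3.55-fold, 2.38 to 5.55), although the Control value rests on 24 UMIs. Pdcd1 was at 174 CPM in Control and 173 CPM in DOPAC (0.992-fold, 0.780 to 1.28), a match within counting error. Lag3 was at 30.8 and 52.1 CPM (1.69-fold, 0.964 to 3.29), Tigit at 41.0 and 31.8 CPM (0.774-fold, 0.472 to 1.37), Ctla4 at 254 and 332 CPM (1.31-fold, 1.07 to 1.61) and Cd244a at 15.4 and 22.0 CPM (1.43-fold, 0.651 to 3.93). The intervals of Lag3, Tigit and Cd244a include both no difference and a difference above the 1.5-fold threshold in at least 1 direction. Entpd1 was at 69.2 and 106 CPM, 1.53-fold higher (1.05 to 2.33), but its log2 ratio with 1 count added to each sum, 0.56, stayed under the threshold. Cd160 was at 84.6 CPM in Control, from 33 UMIs, and at 31.1 CPM in DOPAC, thus lower by 2.72-fold (1.85 to 3.87). The narrower class without cycling cells, 47 against 1899, gave 4 receptors higher (background 12.3%) and 1, Cd160, lower (background 34.1%). Of the higher ones, Cd244a had an interval that includes equality (0.868 to 12.6).

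A naive-gene UMI is found more easily in a deeper cell, and the Control CD8 T cells had a median of 7569 UMIs against 4913 in DOPAC. All gates were therefore also set on cells reduced at random to 1500 UMIs. At this depth 124 of 262 Control and 53 of 1740 DOPAC CD8 T cells had at least 2 naive-gene UMIs. That left 138 Control and 1687 DOPAC CD8 T cells with at most 1 naive-gene UMI, where the full-depth gate had left 54 and 2733. A cell with 2 or more naive-gene UMIs at full depth can fall into this group after thinning. How many did so was not counted, so the group is not free of cells rich in naive genes. In these cells Havcr2 stood at 44.2 and 228 CPM (5.15-fold, 3.98 to 6.79), Cd244a at 5.25 and 21.6 CPM (4.12-fold, 1.96 to 10.4, from 7 Control UMIs), Entpd1 at 42.7 and 103 CPM (2.40-fold, 1.84 to 3.20) and Lag3 at 26.2 and 59.3 CPM (2.26-fold, 1.61 to 3.28). Pdcd1, at 162 and 176 CPM (1.09-fold, 0.942 to 1.26), and Tigit, at 29.98 and 31.8 CPM (1.06-fold, 0.759 to 1.51), again had intervals around equality. Ctla4 was at 246 and 339 CPM (1.38-fold, 1.23 to 1.55), and Cd160 at 63.0 and 32.3 CPM, lower by 1.95-fold (1.51 to 2.49).

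Among the cells with at least 2 naive-gene UMIs (624 and 428 cells at full depth), 7 of 8 receptors were higher in DOPAC, against a background of 18.7%. Havcr2 was at 20.02 and 158 CPM (7.88-fold, 6.41 to 9.76) and Pdcd1 at 65.1 and 118 CPM (1.82-fold, 1.57 to 2.11). Cd160, at 35.4 and 31.9 CPM, was the 1 that was not (0.902-fold, 0.704 to 1.15). The naive-gene gate is a range of a count and no cell type: 24 Control and 516 DOPAC cells had 1 such UMI, just under it, and 41 and 145 cells had 2, just inside it. Cycling CD8 T cells, gated by at least 2 UMIs of Mki67 and Top2a among the cells with at most 1 naive-gene UMI, were 7 in Control and 834 in DOPAC, too few in Control for a comparison.

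**Figure D3:**
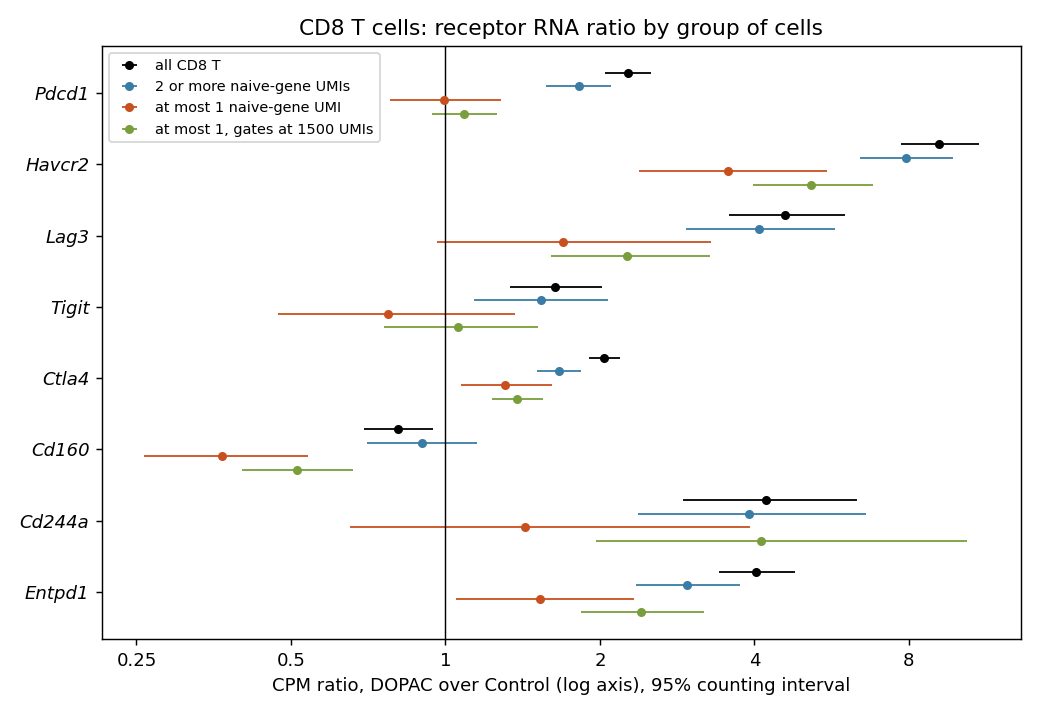
Ratio of the CPM of each receptor in CD8 T cells, DOPAC over Control, on a log axis with 95% counting intervals, for all CD8 T cells, those with 2 or more naive-gene UMIs, those with at most 1, and those with at most 1 when all gates were set on cells thinned to 1500 UMIs. The Havcr2 ratio lies above 1 in each of the 4 groups (9.15, 7.88, 3.55 and 5.15), and the Pdcd1 ratio lies near 1 in both groups with at most 1 naive-gene UMI (0.992 and 1.09).

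Regulatory T cells, which suppress other T cells, were few, so that only 6 of the 8 receptors reached the 20 UMIs required in both sums together. Of these, 4 were higher in DOPAC and 0 lower, where 18.7% of 6458 genes were higher and the same share lower. Lag3 was at 7.54 CPM in Control (7 UMIs) and 108 CPM in DOPAC (25 UMIs), a ratio of 14.4 (6.05 to 39.4). Entpd1 was at 56.0 and 187 CPM (3.33-fold, 2.17 to 5.09), Tigit at 46.3 and 122 CPM (2.62-fold, 1.57 to 4.32) and Havcr2 at 51.7 and 135 CPM (2.60-fold, 1.60 to 4.17). Ctla4 was 1.45-fold higher (1.30 to 1.61) and so under the threshold. Pdcd1 was not among the higher ones, at 100.1 CPM in Control (93 UMIs) and 65.1 CPM in DOPAC (15 UMIs), 0.650-fold (0.350 to 1.13). Cd160, with 1 and 0 UMIs, and Cd244a, with 9 and 1, could not be compared. The CD8 T set of Nkg7 and Ccl5 summed to 1077 CPM in Control and 2824 CPM in DOPAC regulatory T cells, and its part in these levels was not tested.

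Other T cells had no UMI of Cd8a, Cd8b1 or Foxp3 and mix several kinds, gamma delta T cells and CD8 T cells with undetected Cd8 among the possible ones. In them 6 receptors were higher and 0 lower, against backgrounds of 14.3% and 16.9%. Lag3 was 13.1-fold higher (6.20 to 31.7) from 8 Control UMIs, Havcr2 10.9-fold (7.71 to 15.8), at 8.28 and 90.2 CPM, and Entpd1 7.14-fold (5.16 to 10.1), at 10.2 and 73.1 CPM. Pdcd1 was at 26.4 and 78.3 CPM (2.97-fold, 2.36 to 3.76), Ctla4 at 148 and 344 CPM (2.32-fold, 2.10 to 2.57) and Tigit at 25.1 and 40.7 CPM (1.63-fold, 1.23 to 2.14). Cd160 (0.970-fold) and Cd244a (1.26-fold) were not past the threshold. In the 205 Control and 115 DOPAC cells with Cd4 or Cd40lg UMIs, the nearest to CD4 helper cells, 5 receptors had enough UMIs and each of these was higher (background 19.9%), such as Pdcd1 at 38.3 and 114 CPM (2.98-fold, 1.97 to 4.49). In the 500 and 716 cells without them, 5 were higher and 0 lower (backgrounds 14.5% and 17.3%), such as Ctla4 at 85.5 and 284 CPM (3.32-fold, 2.87 to 3.85). Regulatory T cell markers summed to 1587 and 1475 CPM in other T cells. The CD8 T set summed to 3746 and 5999 CPM in them, and to 2005 and 3887 CPM in those with Cd4 or Cd40lg UMIs. The part of either set in these levels was not tested.

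In NK cells, 4 receptors were higher in DOPAC and 0 lower (backgrounds 11.9% and 19.1%), from low Control levels. These were Pdcd1 at 1.20 and 7.54 CPM (6 and 20 UMIs), Lag3 at 0.800 and 9.43 CPM (4 and 25 UMIs), Havcr2 at 3.20 and 16.2 CPM (16 and 43 UMIs) and Ctla4 at 19.99 and 90.9 CPM (100 and 241 UMIs; 4.55-fold, 3.59 to 5.80). The 4 others were within 1.5-fold: Cd244a at 71.6 and 58.1 CPM (0.811-fold, 0.667 to 0.983), Tigit at 37.8 and 34.3 CPM, Cd160 at 22.4 and 27.1 CPM, and Entpd1 at 43.8 and 30.9 CPM (0.706-fold, 0.541 to 0.914). Trac, the T-cell receptor alpha constant gene, was at 29.98 CPM in Control and 53.2 CPM in DOPAC NK cells, while Trac and Cd2 together summed to 203.5 and 137.6 CPM. For each Trac UMI the DOPAC NK cells held 1.71 Ctla4 UMIs (1.38 to 2.12), more than the 0.660 of DOPAC CD8 T cells, but 0.142 Pdcd1 UMIs (0.0841 to 0.228), fewer than their 0.341. DOPAC other T cells held 0.9545 Ctla4 UMIs (0.868 to 1.049) and 0.217 Pdcd1 UMIs (0.185 to 0.254) per Trac UMI. The part of T-cell RNA in the NK levels was not tested.

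In myeloid cells the receptors that these cells hold in quantity differed little. Entpd1 was at 175 and 186 CPM (1.06-fold, 1.008 to 1.12), Havcr2 at 89.1 and 110 CPM (1.23-fold, 1.14 to 1.32) and Cd244a at 39.2 and 47.9 CPM (1.22-fold, 1.10 to 1.36). Pdcd1, Tigit, Ctla4 and Cd160 were counted as higher and 0 receptors as lower (backgrounds 14.6% and 19.2%), at 8.95, 2.06, 23.2 and 2.78 CPM in DOPAC. Trac in monocytes and macrophages was at 4.97 CPM in Control and 24.0 CPM in DOPAC. Per Trac UMI, DOPAC monocytes and macrophages held 0.369 Pdcd1 UMIs (0.266 to 0.506) and 0.0805 Tigit UMIs (0.0407 to 0.145), while DOPAC CD8 T cells held 0.341 and 0.0643. These ratios differ by less than counting error, and the part of T-cell RNA in the low myeloid levels of both genes was not tested. Ctla4, at 0.940 per Trac UMI (0.741 to 1.19), lay above the 0.660 of CD8 T cells but within counting error of the 0.9545 of DOPAC other T cells (0.868 to 1.049). The part of T-cell RNA in the myeloid Ctla4 level was not tested either. Per Trac UMI, the same cells held 4.20 Havcr2 UMIs and 9.01 Entpd1 UMIs, against 0.433 and 0.205 in CD8 T cells. The dendritic cell classes were small in DOPAC. In cDC1, 3 receptors were higher and 0 lower (backgrounds 20.3% and 14.2%), among them Entpd1 at 63.2 and 127 CPM (2.01-fold, 1.64 to 2.44). Mature dendritic cells, marked by Fscn1, had 4 receptors with enough UMIs, each of which was higher (background 16.8%), but from 6 to 11 DOPAC UMIs each. The intervals of Havcr2, Ctla4 and Entpd1 include equality, and that of Pdcd1 does not (3.17-fold, 1.25 to 7.13). In that class the melanoma genes Pmel, Mlana and Dct summed to 1726 CPM in Control and 84.1 CPM in DOPAC, Ccl22 and Cacnb3 of mature dendritic cells to 939 and 1167 CPM, and the CD8 T set to 4112 and 10570 CPM. The part of these differences in its receptor levels was not tested. In other dendritic cells 2 were higher (background 20.1%), Pdcd1 and Ctla4, both with intervals that include equality. Lag3 was lower there (background 17.3%), on 74 Control and 2 DOPAC UMIs and also with an interval that includes equality (0.422-fold, 0.0501 to 1.58). In plasmacytoid dendritic cells, 2 of the 5 receptors with enough UMIs were higher (background 29.1%) and 0 lower, from 4 and 7 DOPAC UMIs. The interval of Havcr2 includes equality (1.99-fold, 0.524 to 5.41), and that of Ctla4 does not (4.40-fold, 1.67 to 9.89).

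How often a receptor was found in a single cell depends on depth, so each cell was thinned at random to 1500 UMIs, and 3 Control and 40 DOPAC CD8 T cells with fewer were left out. Havcr2 was found in 1.78% of 675 Control CD8 T cells (0.922 to 3.09) and in 25.2% of 3121 DOPAC CD8 T cells (23.6 to 26.7). Ctla4 was found in 17.0% and 37.0%, Pdcd1 in 6.96% and 19.6%, Entpd1 in 3.41% and 12.9%, Lag3 in 1.33% and 7.24%, Tigit in 2.52% and 4.65%, Cd160 in 4.15% and 4.10%, and Cd244a in 0.444% and 3.04%. Without thinning, the Havcr2 shares were 9.29% and 55.2% and those of Pdcd1 20.4% and 51.6%. Control B cells, 610 at this depth, set the background: 0.820% had Havcr2 (0.267 to 1.90), 1.48% Ctla4, 0.328% Pdcd1, 0.984% Cd244a, and 0 Lag3, which allows up to 0.492%. The Control CD8 T share of Cd244a was thus at background, and that of Havcr2 was not separable from it. Only 8 DOPAC B cells had the depth, so no background share could be set for DOPAC. In DOPAC monocytes and macrophages 1.39% had Pdcd1, 3.16% Ctla4, 0.514% Lag3, 0.220% Tigit and 0.587% Cd160. These 5 genes were picked because they were low there, so their shares are no independent background for the CD8 T shares. Havcr2, Entpd1 and Cd244a, which these cells hold in quantity, were left out.

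Most DOPAC CD8 T cells carried at least 1 receptor and a sizeable part carried several. At least 1 of the 8 was found in 30.4% of the Control cells (26.9 to 34.0) and in 69.7% of the DOPAC cells (68.0 to 71.3). At least 2 were found in 32.8% (31.1 to 34.4) against 6.07% (4.39 to 8.15), and at least 3 in 9.32% against 1.04%. The highest number in 1 cell was 5 in DOPAC and 4 in Control. Among Control CD8 T cells low in naive genes, 9 of 46 cells (19.6%, 9.36 to 33.9) had at least 2, against 36.0% of 1862 such DOPAC cells (33.9 to 38.3). These intervals overlap at their edges. In Control, 12.7% of CD8 T cells had Ctla4 as the sole receptor, which was the most frequent combination after none at all. In DOPAC, Ctla4 alone (14%), Havcr2 alone (8.40%), Pdcd1 alone (5.93%) and Havcr2 with Ctla4 (5.45%) followed none (30.3%).

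Among the broad classes, regulatory T cells had the highest shares with several receptors. At least 2 receptors were found in 21.1% of 76 Control cells (12.5 to 31.9) and 29 of 58 DOPAC cells (36.6% to 63.4%), and these intervals overlap those of CD8 T cells low in naive genes in each library. Havcr2 was found in 3.95% and 17.2%, Lag3 in 1.32% and 17.2% and Entpd1 in 6.58% and 18.97%, while Ctla4 was found in 79.0% and 87.9%. In other T cells the share with at least 2 was 3.13% and 16.5%, in NK cells 2.05% and 4.37%, and in myeloid cells 5.36% and 8.10%. B cells of Control gave 0.492%.

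**Figure D4:**
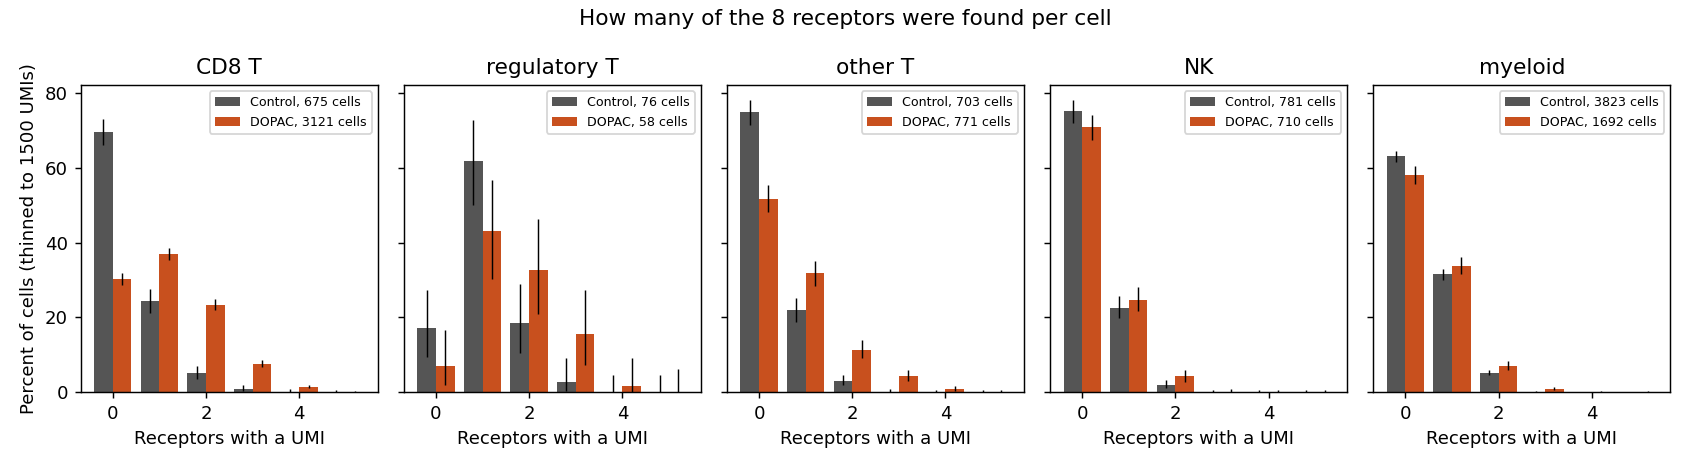
Percent of cells by the number of the 8 receptors found in a cell thinned to 1500 UMIs, for 5 classes, Control in grey and DOPAC in orange, with exact 95% binomial intervals. CD8 T cells with at least 2 receptors made up 6.07% in Control and 32.8% in DOPAC, and NK cells 2.05% and 4.37%.

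Within DOPAC CD8 T cells, receptors were found together about as often as their separate shares give. Each pair was taken once, in 1 direction. The ratio is the share of cells with the second receptor among cells with the first, over that among cells without it. Of the 28 pairs, 19 had a ratio above 1, and the median ratio was 1.09. A cell that holds a receptor can lack its UMI at this depth and count as without it, which draws ratios towards 1. The ratios therefore describe UMIs found, and independence of the receptors in the cells themselves was not tested. Pdcd1 was found in 20.6% of cells with Havcr2 (17.9 to 23.6) and 19.2% of those without (17.6 to 20.8). The 3 pairs whose intervals lay apart all held Ctla4. Ctla4 was found in 44.1% of cells with Pdcd1 (40.1 to 48.1) and 35.2% of those without (33.4 to 37.2), in 48.2% with Lag3 and 36.1% without, and in 48.3% with Tigit and 36.4% without. The pair of Ctla4 and Cd160 leaned the other way: Ctla4 was found in 32.0% of cells with Cd160 (24.1 to 40.9) and 37.2% of those without, intervals that overlap. At 3000 UMIs per cell, where 2624 DOPAC cells remained, the median ratio was 1.12 over a range of 0.679 to 1.33. There 5 pairs lay apart: Ctla4 with Pdcd1, Lag3 and Tigit, and Lag3 with Havcr2 and Entpd1. Pairs with Cd160 lay on both sides of 1, from 0.679 with Cd244a to 1.185 with Havcr2.

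In Control CD8 T cells fewer pairs could be set up. At 3000 UMIs, 14 of 15 pairs had a ratio above 1, with a median of 2.05, in 670 cells. Havcr2 was found in 16.7% of cells with Pdcd1 (9.18 to 26.8) and 2.37% of those without (1.30 to 3.94), and Ctla4 in 55.1% of cells with Pdcd1 and 25.3% of those without. At 1500 UMIs, the intervals of 0 of 6 pairs lay apart, with a median of 1.58 in all Control CD8 T cells and 1.013 in those rich in naive genes. The DOPAC other T cells without Cd4 or Cd40lg, a mixed class, had ratios above 1 in all 10 pairs that could be set up, with a median of 2.01, such as Havcr2 in 13 of 52 cells with Pdcd1 (14.03% to 39.0%) and 10.6% of those without (8.25 to 13.3). The part of cell mixture was not tested, and the difference between the classes' ratios was not tested.

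DOPAC CD8 T cells with more receptors also differed in other RNAs. They were grouped as 946 cells with 0, 1153 with 1, 731 with 2 and 291 with at least 3 receptors in thinned cells. Median full depths lay between 4732 and 5153 UMIs. The groups pool cells rich and low in naive genes and cycling cells. No receptor was found in 41.4% of the DOPAC cells rich in naive genes and in 28.6% of the others, with 33.7% in the cycling ones. The part of this mixture in the following levels was not tested. Tox, a transcription factor of lasting T-cell stimulation, stood at 720 CPM with 0 receptors (676 to 765), 862 with 1, 938 with 2 and 1125 with at least 3 (1028 to 1229). Gzmb, the killing protease granzyme B, was at 1018, 1189, 1411 and 1441 CPM, and the chemokine receptor gene Cxcr6 at 154, 204, 241 and 282 CPM. Prf1, which encodes the pore-forming perforin, was at 123 CPM with 0 and 238 CPM with at least 3. Each of these 4 had intervals that lay apart between the first and the last group.

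The genes of resting and dividing cells ran the opposite way. Tcf7, the factor of naive and stem-like T cells, is itself a gene of the naive gate. It had 41 UMIs (28.9 CPM) in cells with 0 receptors and 0 UMIs in the 291 cells with at least 3. A count of 0 there allows a level of up to 6.87 CPM. Il7r, the interleukin-7 receptor gene, was at 78.2 CPM with 0 and 34.4 CPM with at least 3 receptors. Mki67, a gene of dividing cells, was at 161 CPM (141 to 184) and 84.8 CPM (59.7 to 117). Eomes, at 30.3 and 36.7 CPM, Nr4a3, at 202 and 199 CPM, and the housekeeping gene Actb, at 7520 and 7533 CPM, were level within counting error. In Control the groups held 470, 164, 34 and 7 cells, and Tox was likewise at 308, 541 and 706 CPM with 0, 1 and 2 receptors.

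**Figure D5:**
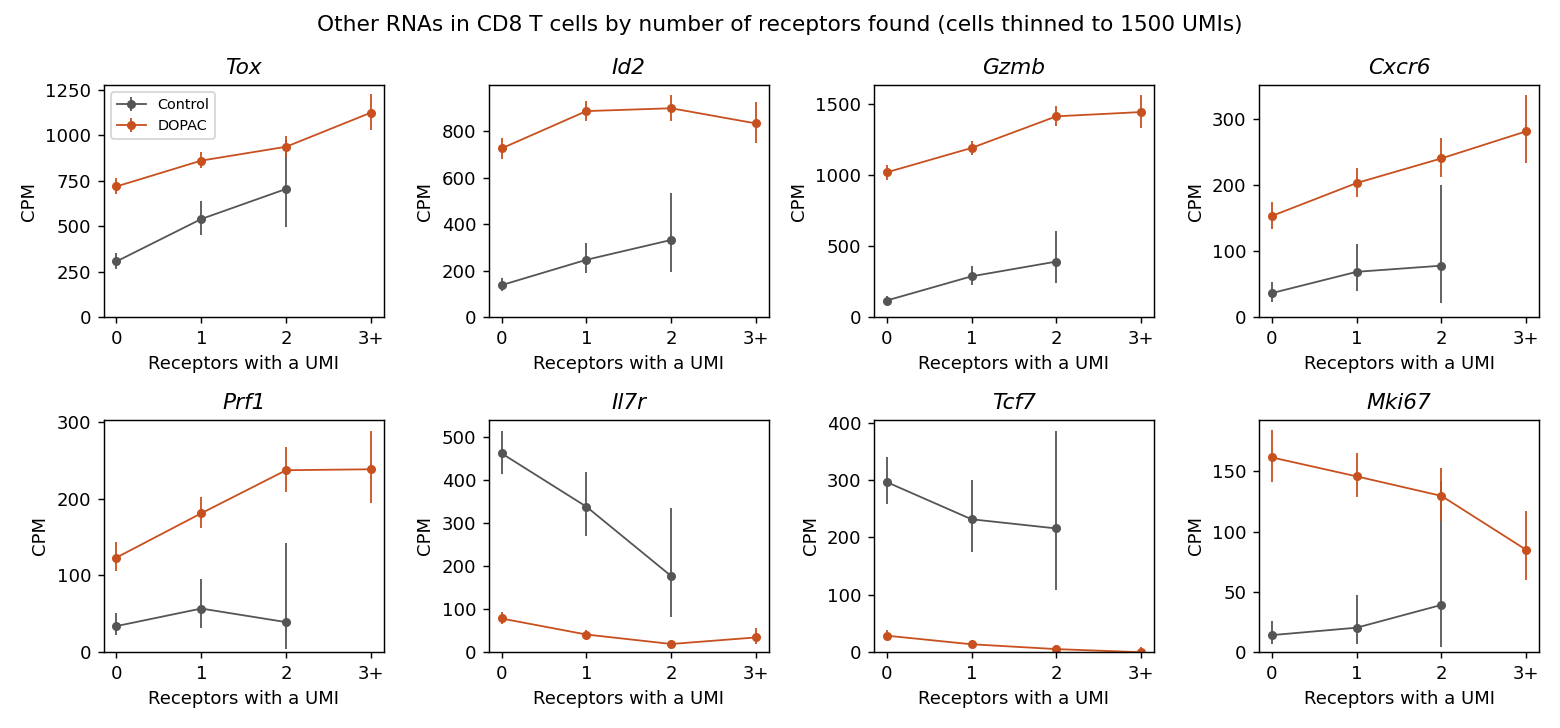
CPM of 8 other genes in CD8 T cells grouped by how many of the 8 receptors were found in the thinned cell (x axis), Control in grey and DOPAC in orange, with 95% Poisson intervals and y axes starting at 0; the Control group of 7 cells with 3 or more is not drawn. In DOPAC cells with 0 and with 3 or more receptors, Tox stood at 720 and 1125 CPM and Mki67 at 161 and 84.8 CPM.

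Other inhibitory receptors of lymphocytes differed in both directions in CD8 T cells. Of 12 listed, 11 had enough UMIs, and 2 were higher and 3 lower in DOPAC (median log2 ratio -0.15), shares near those over all genes (17.4% and 22.4%). Klrc1, the NK-type receptor NKG2A, was at 77.4 and 302 CPM (3.91-fold, 3.55 to 4.31), and at 105 and 319 CPM without the cells rich in naive genes (3.03-fold, 2.23 to 4.23), where 2 of the 11 were higher (background 11.8%) and 6 lower (background 35.9%). Cd200r1 was at 5.51 and 18.4 CPM (3.34-fold, 2.34 to 4.94). Btla, which binds the herpesvirus entry mediator, was 3.24-fold lower (2.68 to 3.92), at 38.3 and 11.8 CPM, and Vsir (VISTA) 1.81-fold lower (1.56 to 2.10).

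Of the genes for ligands, 9 of 13 had enough UMIs in CD8 T cells, with 2 higher (Hmgb1 2.46-fold, Pdcd1lg2 2.06-fold) and 2 lower (Nt5e 2.24-fold, Pvr 1.51-fold), again near the all-gene shares of 17.4% and 22.4%. In monocytes and macrophages, where 15.2% of genes were higher and 17.4% lower, the ligand list gave 3 of 11 higher and 1 lower, and the 8 receptors gave 5 higher and 0 lower. Both ligands of PD-1 were among the higher: Cd274 (PD-L1) at 326 and 657 CPM (2.01-fold, 1.94 to 2.09) and Pdcd1lg2 (PD-L2) at 8.98 and 29.3 CPM (3.26-fold, 2.70 to 3.93). Tnfrsf14, which encodes the herpesvirus entry mediator, the partner of BTLA and CD160, was at 1.96 and 2.90 CPM from 67 and 18 UMIs (1.48-fold, 0.827 to 2.52), counted as higher although the interval includes equality. Nt5e, the ectoenzyme CD73 that acts after CD39, was 1.86-fold lower (1.16 to 3.15), at 5.67 and 3.06 CPM.

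Of 8 genes for signalling proteins below the receptors, 1 was higher and 2 lower in CD8 T cells, beside the same 17.4% and 22.4% over all genes. Inpp5d, the phosphatase SHIP-1, was 1.58-fold lower (1.49 to 1.67) and Dok2, an adaptor, 1.76-fold lower (1.51 to 2.04). Sh2d1b1, which encodes a 2B4 adaptor, rested on 3 and 25 UMIs (2.67-fold, 0.813 to 13.8), and Csk was 1.25-fold lower and not past the threshold. Of 14 transcription factors, 5 were higher (background 17.4%) and 4 lower (background 22.4%). Id2, a factor of effector cells, was at 197 and 822 CPM (4.18-fold, 3.94 to 4.44) and Prdm1 (BLIMP-1) at 15.4 and 38.3 CPM (2.49-fold, 2.001 to 3.13). Tcf7, itself a gene of the naive gate, was 16.3-fold lower, and Id3 9.45-fold lower (6.65 to 13.7). Without the cells rich in naive genes, 1 of the 14 was higher (background 11.8%) and 7 were lower (background 35.9%). The higher one was Id2, still 1.65-fold higher (1.43 to 1.90), while Prdm1 was at 33.3 and 39.4 CPM (1.18-fold, 0.686 to 2.23).

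The genes whose levels followed each receptor most closely were found by Pearson correlation of log2(CPM + 1) over 22 sums of a class in a library, among 9047 genes. The points share libraries and, within each, depth, so the values are descriptions. Pdcd1 went with Cd3e (r = 0.956), Themis (0.9504) and Cd3g (0.942), T-cell genes of which Cd3e and Cd3g were in the gate. Ctla4 went with Gm20275 (0.957), Icos (0.956), its neighbour on chromosome 1 and a costimulatory receptor, and Gstp3 (0.949). Tigit went with Rasa1 (0.961), Tox (0.959) and Cd27 (0.957), and Cd160 with Klrc1 (0.912), Ctsw (0.910) and Fasl (0.905), genes of killer cells. The remaining receptors had looser company. Havcr2 went with Rbpj (0.878), Ndufb1-ps (0.862) and Tomm6 (0.855), and Lag3 with Dcun1d5 (0.861), Map2 (0.851) and Zfp91 (0.825). Cd244a went with Lat2 (0.871), Evi2 (0.807) and Selenon (0.802), and Entpd1 with Ufm1 (0.845), Cdk6 (0.841) and Anxa11os (0.825). Map2 and Anxa11os each peaked at 21.69 CPM in DOPAC regulatory T cells, close to the minimum level required of a gene. In that sum 1 UMI equals 4.338 CPM, so both peaks rest on few UMIs. Lag3 was also highest in that sum, at 108.4 CPM. How far the correlations of Map2 and Anxa11os rest on it was not tested. Among the receptors themselves, Ctla4 and Tigit were closest (0.889), followed by Ctla4 and Pdcd1 (0.864) and by Havcr2 and Entpd1 (0.779), while Pdcd1 and Cd244a ran against each other (-0.493).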

How the data were processed

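Each deposited matrix gives the unnormalized count of UMIs for a gene in a barcode. Per the file headers the tool was Cell Ranger 7.0.1, and per the submitters' processing notes the build was GRCm38; the annotation release and the use of intron reads are not given in the sources used here. The tissue label and the design text give tumor as the source and were followed, although the labels' protocol speaks of colon. Cells were kept with at least 500 UMIs, 200 genes and at most 10% mitochondrial UMIs. Scrublet (scanpy 1.11.5, numpy 2.4.6, scipy 1.17.1) removed 339 Control doublets (4.02%) by its automatic threshold; in DOPAC that threshold marked 0.0%, so the 815 cells (8.07%) of highest score were removed, at the expected rate of 0.8% per 1000 cells.

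Cells were gated by UMI sums, and class names mean cells that met a gate: NK cells had at least 2 UMIs of Ncr1, Klrb1c and Klre1, B cells at least 3 of B cell genes such as Cd79a and Ms4a1, and myeloid cells at least 3 of macrophage and dendritic cell genes, with each class's sum set against those of the others. Some genes of these gates are not reported here. UMIs were summed per class and library and scaled to CPM with exact Poisson intervals; ratios have exact conditional intervals, and shares exact Clopper-Pearson intervals. A gene counted as higher or lower when its log2 ratio, with 1 count added to each sum, passed 1.5-fold and both sums together held at least 20 UMIs. Shares came from cells thinned to 1500 UMIs, and the limit for a count of 0 is 3 counts. The procedure was tested on simulated data. The members, gene lists and tests were chosen with earlier results of these data known. Named were all 8 receptors, up to 4 genes of each list with the largest ratio, and 3 correlated genes per receptor (sums of at least 50 cells, genes of at least 20 CPM); the genes shown by receptor number were chosen after their values were seen.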

Additional observations from a re-analysis of the deposited data

Results flagged for a closer look

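Cd160 moved in opposite directions in 2 classes. In CD8 T cells low in naive genes, 47 in Control and 1899 in DOPAC, its log2 ratio of DOPAC over Control was -1.54, at 100.6 and 35.6 CPM from 32 and 301 UMIs. In myeloid cells it was 2.51, at 0.492 and 2.78 CPM from 28 and 23 UMIs, and Trac RNA in monocytes and macrophages was higher in DOPAC as well, at 4.97 and 24.0 CPM. The difference between the classes was not tested, since each value compares 1 library with 1 library.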

How the results depend on the processing

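No paired analysis was possible because each group is 1 library and no result comes from a test. The largest changes in CD8 T cells came with leaving out those of 2 or more naive-gene UMIs, a gate that depends on depth. Without them, the number of receptors at least 1.5-fold higher in DOPAC went from 7 to 2 and the number lower from 0 to 1. The log2 ratios of Pdcd1 (-0.0325) and Tigit (-0.45) turned negative. Among the cells left out, 7 of 8 receptors were higher. With gates set on cells thinned to 1500 UMIs, 6 receptors were higher and 1, Cd160, lower in all CD8 T cells. Under these gates and without cells that had 2 or more naive-gene UMIs after thinning, Havcr2 (5.15-fold), Cd244a (4.12-fold), Entpd1 (2.40-fold) and Lag3 (2.26-fold) were higher. Cd160 was lower there (1.95-fold), and Pdcd1, Tigit and Ctla4 stayed under 1.5-fold. The thinned gates left 22 Control and 28 DOPAC regulatory T cells. In these, 2 of the 4 receptors compared had ratios outside their main counting intervals. The same held for 4 of 8 in other T cells, 1 of 7 in NK cells and 3 of 8 in myeloid cells. In regulatory T cells 1 receptor in place of 0 was lower, Pdcd1, when each cell counted equally (log2 ratio -0.86), and also when the added count was scaled to the class totals, an alternative chosen after seeing the data (-0.61). In NK cells 1 in place of 0 was lower, Entpd1, at a limit of 5% mitochondrial UMIs (-0.61).

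The share of CD8 T cells with 2 or more receptors depends on depth. It was 6.07% in Control and 32.8% in DOPAC at 1500 UMIs, 19.6% in DOPAC at 1000 UMIs, 18.1% and 61.8% at 3000 UMIs, and 33.6% and 78.0% without thinning. With thinned gates it was 9.54% and 34.9%, and without the cells rich in naive genes the Control share was 17.0% of 53 cells. Doublets kept, a gate of 3 Cd3 UMIs, a minimum of 2000 UMIs, centring on all genes and 0.5 added counts left the number of higher receptors in CD8 T cells at 7. The cause of these changes was not tested. The main limits are 1 library per group, a Control library of more than 2 times the UMI total, and small Control classes.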
